A study of Rattus norvegicus with 29 samples.

Results

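Glial cells of the brain supply neurons with cholesterol and other lipids packed into small lipoprotein particles, and 7 rat genes of that route were followed here in the basolateral amygdala. They were taken as a list of symbols, chosen with earlier results of these data known: Apoe, Apod, Clu, Lpl, Abca1, Lrp1 and Scarb1. The array carried probe sets annotated to 6 of the 7, against 10411 genes with a single symbol in the whole table. A probe set is a group of short probes read together as 1 signal. The 6 genes have 9 probe sets, of which 6, 1 per gene, were bright enough to be tested among 9520. Abca1 has no probe set in the annotation used and no value is given for it.

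In this route, astrocytes load lipid onto apolipoproteins through membrane transporters such as Abca1, and the particles carry it through the fluid between cells. Lipases act on the particles, and receptors of the low-density lipoprotein receptor family or scavenger receptors take them or their lipid into cells. Apolipoprotein E is the main protein of these particles in brain. The basolateral amygdala is a brain region needed for fear conditioning, in which a rat learns that a cue predicts pain. Isoflurane is an inhaled anaesthetic that can block the forming of memories.

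Of the 7 genes, 4 have a promoter window in the RefSeq table of rat genome GRCr8, running from 250 bases before to 50 bases after a transcript start. The windows of Apod and Apoe are shown because Apod had the largest group differences and Apoe the brightest signal of the 6 genes. The Apod window lies at chr11:82935970-82936269 on the + strand, and its capitals mark a TATA box, TATAAA, at position -33 from the start. Apoe has 3 windows, and the 1 shown lies at chr1:88484650-88484949 on the - strand, with capitals for 2 GC boxes, GGGCGG on either strand.
Apod: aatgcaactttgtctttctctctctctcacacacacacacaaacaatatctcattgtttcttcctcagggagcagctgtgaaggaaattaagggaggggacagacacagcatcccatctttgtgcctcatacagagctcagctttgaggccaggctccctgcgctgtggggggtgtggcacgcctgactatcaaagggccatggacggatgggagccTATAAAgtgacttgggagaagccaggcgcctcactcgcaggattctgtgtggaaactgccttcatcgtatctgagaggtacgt
Apoe: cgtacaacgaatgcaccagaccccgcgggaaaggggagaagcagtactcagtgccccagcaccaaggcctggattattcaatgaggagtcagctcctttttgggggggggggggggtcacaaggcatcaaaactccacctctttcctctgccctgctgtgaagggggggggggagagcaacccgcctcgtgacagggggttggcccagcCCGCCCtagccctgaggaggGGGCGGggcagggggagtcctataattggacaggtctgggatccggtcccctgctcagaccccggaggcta
On both strands, TATAAA occurs in 14.2% and GGGCGG in 33.1% of 33469 such windows. The search also took the E-box CACGTG, in 6.4% of windows, and the CCAAT box, in 37.5%. The Apoe window shown holds 1 CCAAT and no E-box, the Apod window holds neither of them and no GC box, and the marked motifs overlap no other motif searched. These matches describe the letters and are no evidence that a factor binds there.

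The 29 arrays fall into 5 groups of rats, all sampled in the basolateral amygdala. There were 5 arrays each of fear conditioning under isoflurane, fear conditioning, pain (a component of conditioning) and isoflurane alone, each taken 6 h after the treatment, and 9 of baseline controls with no time given. No strain, age or sex is given in the labels. Both conditioning groups carry abbreviated labels, whose meaning was taken from the series' design text. The labels number the rats of the 15 arrays of pain, conditioning and conditioning under isoflurane, while the 14 arrays of isoflurane and baseline have a named labelling kit instead. The 15 rat numbers all differ, but no label states that each of the 29 arrays is a rat of its own. P-values measure the spread between these arrays, which may be technical in part. A difference that pairs a group with a kit named and a group without cannot be told apart from a kit difference. This holds for pain, conditioning and conditioning under isoflurane minus baseline, for conditioning under isoflurane minus isoflurane, but not for conditioning under isoflurane minus conditioning, conditioning minus pain or isoflurane minus baseline.

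Before normalization the array medians lay between 210.7 and 292.2 signal units, highest in pain replicate 3. That array also had the lowest mean correlation with the others (0.9064), so results that use pain are also given without it where it matters. Baseline replicate 1 had a summed choroid plexus marker signal of 16618, while no other array exceeded 2343. Markers of neurons and of all 3 kinds of glia were present: all 10 listed astrocyte markers, 8 of 10 oligodendrocyte, 7 of 8 microglial and 6 of 8 neuronal markers were above the brightness filter, and the missing ones had no probe set except Itgam, which was below it. Of 8 vascular markers 4 were above the filter, of 8 meningeal and fibroblast markers 4, of 6 choroid plexus markers 3 and of 8 red cell markers 2. Summed marker signals, here and below, take all markers of a list that have a probe set, also those below the filter. Summed over the 3 red cell markers with a probe set, signals were 1463 to 2180 after pain and 2293 to 6699 at baseline. Hbb was much the brightest of them (mean log2 11.55, against 7.30 for Slc4a1 and 6.98 for Alas2). Of the 2 above the filter, 1 was higher and 1 lower in pain minus baseline. The part of red cells in the results was not tested. These are RNA levels of pieces of tissue, so fewer cells of a type and less RNA per cell cannot be told apart.

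Signals below are log2 values after quantile normalization, a step that gives every array the same distribution of values. Standard errors and p-values come from limma, a linear model fitted to all tested probe sets. Adjusted p-values are Benjamini-Hochberg values over all 9520, and the threshold was 0.05. With 5 arrays against 9, a log2 difference had a median SE of 0.127 over all tested probe sets, and between groups of 5 one of 0.144. None of the differences between groups in the 6 genes passed that threshold, and the groups overlapped for every gene in every pair compared.

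Apod, the gene of apolipoprotein D, had its lowest signals after conditioning under isoflurane. Apolipoprotein D is a small secreted lipocalin that binds arachidonic acid and other lipids, and in brain it is made by oligodendrocytes and astrocytes. Its signals were 9.97, 10.77, 10.21, 9.86 and 10.01 after conditioning under isoflurane, against 10.56, 11.14, 10.76, 10.53 and 11.02 after conditioning. After pain they were 10.92, 10.60, 11.16, 10.16 and 10.35, and after isoflurane alone 10.21, 10.85, 10.58, 10.75 and 10.23. At baseline the lowest was 10.17, the median 10.60 and the highest 10.93. Replicate 2 was the high array of the conditioning under isoflurane group and reached into the range of conditioning, while the other 4 lay below every conditioning array.

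The Apod mean was 10.16 ± 0.36 after conditioning under isoflurane and 10.80 ± 0.27 after conditioning (SD, n = 5 each). The log2 difference of -0.64 (SE 0.18, 95% interval -1 to -0.28) is 0.64-fold, with a limma p of 0.00113 and an adjusted p of 0.999. All 5 arrays of conditioning under isoflurane lay below the conditioning mean. Over all tested probe sets 3.69% had a limma p under 0.05 in this comparison, and Apod was the only 1 of the 6 genes to do so. Without conditioning under isoflurane replicate 2 the Apod difference was -0.79 (limma p 7.78e-05, adjusted p 0.741), and under the other alternatives run it lay between -0.71 and -0.56.

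Against baseline, with a mean of 10.57 ± 0.22 (SD, n = 9), Apod after conditioning under isoflurane differed by -0.40 (SE 0.16, limma p 0.015, adjusted p 0.69). Against isoflurane alone, with a mean of 10.52 ± 0.29 (SD, n = 5), it differed by -0.36 (SE 0.18, limma p 0.052, adjusted p 0.998). After conditioning it differed from baseline by 0.24 (SE 0.16, limma p 0.144, adjusted p 0.618). The mean after pain, 10.64 ± 0.41 (SD, n = 5), differed from baseline by 0.07, and by -0.06 without pain replicate 3. The interaction asks whether conditioning goes with a different change under isoflurane than without it, and for Apod it was -0.60 (SE 0.24, 95% interval -1.08 to -0.11, limma p 0.0177, adjusted p 0.959). In the order of Apod means, conditioning was highest, then pain, baseline, isoflurane and conditioning under isoflurane. Only the last step of that order, 0.36, exceeded the within-group SD of 0.30.

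Oligodendrocyte markers differed in the same direction as Apod in some comparisons and not in others. In conditioning under isoflurane minus conditioning 0 of 8 were higher, with a median of -0.27, and in conditioning minus baseline 8 of 8 were higher, with a median of 0.29. In the interaction 0 of 8 were higher (median -0.33). In conditioning under isoflurane minus baseline, where Apod differed by -0.40, 5 of 8 were higher with a median of 0.02, and in conditioning under isoflurane minus isoflurane 3 of 8 with a median of -0.06. None of these 8 markers passed the adjusted threshold. Their summed signal was 21699 to 29483 after conditioning under isoflurane, 25005 to 34124 after conditioning and 21556 to 28855 at baseline. In conditioning under isoflurane minus conditioning, 0 of 7 microglial markers (median -0.09) and 3 of 10 astrocyte markers (median -0.08) were higher, and in the interaction 1 of 7 (median -0.13) and 2 of 10 (median -0.15). The part of oligodendrocyte, microglial or astrocyte content in the Apod difference was not tested.

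**Figure D1:**
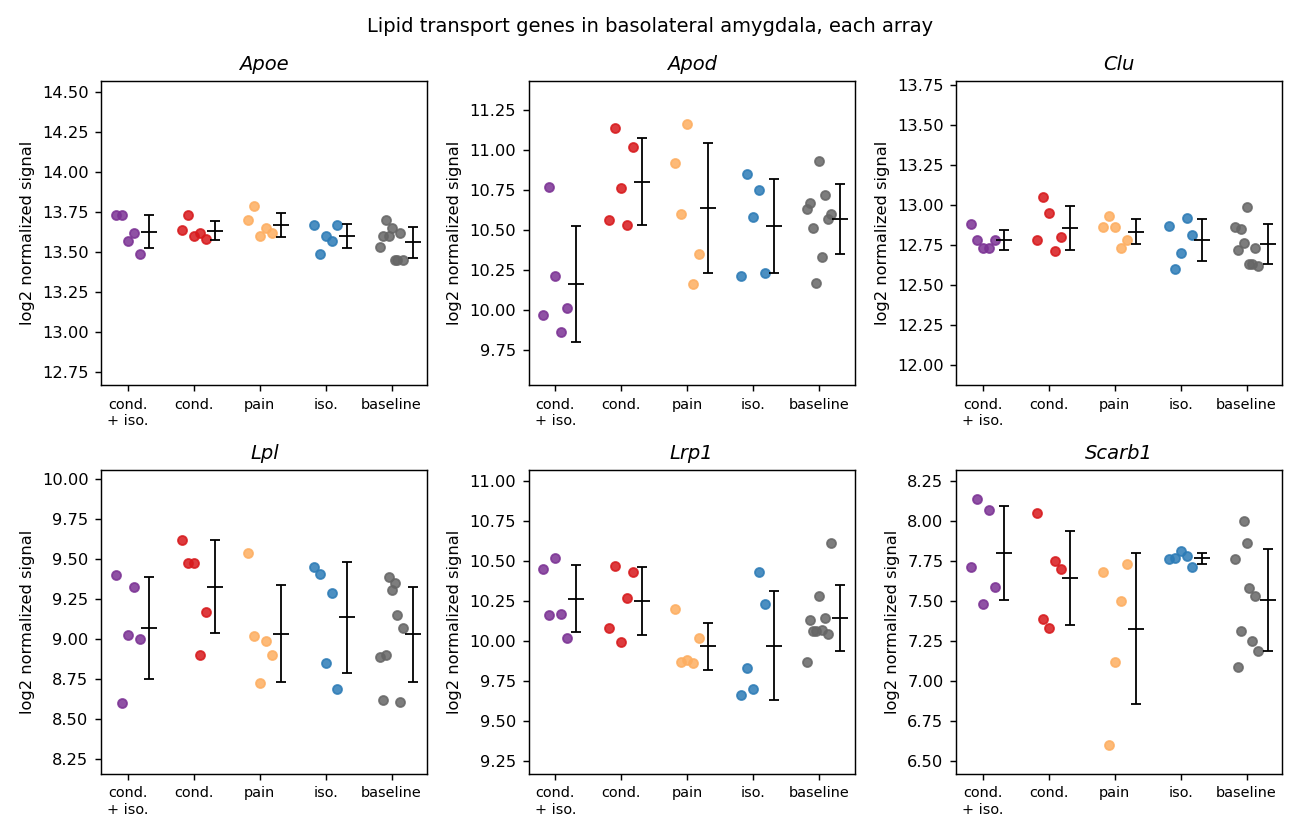
Log2 normalized signal of the 6 tested genes, 1 point per array, in conditioning under isoflurane, conditioning, pain, isoflurane (5 arrays each) and baseline (9 arrays), left to right. The black mark beside each group is its mean with SD, and all panels cover a range of the same height. Apod shows 4 low arrays after conditioning under isoflurane, between 9.86 and 10.21, while Apoe and Clu vary little within and between groups.

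Apoe was among the brightest transcripts on every array, ranked from 2 to 17 of all probe sets. Its signals were 13.73, 13.73, 13.57, 13.62 and 13.49 after conditioning under isoflurane, 13.64, 13.73, 13.60, 13.62 and 13.58 after conditioning, and 13.70, 13.79, 13.60, 13.65 and 13.62 after pain. After isoflurane alone they were 13.67, 13.49, 13.60, 13.57 and 13.67, and at baseline the lowest was 13.45, the median 13.60 and the highest 13.70. The pain arrays were all above the baseline mean, yet only 1 of them, replicate 2, was above the highest baseline array.

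Apoe averaged 13.67 ± 0.08 after pain (SD, n = 5) and 13.56 ± 0.09 at baseline (SD, n = 9), a log2 difference of 0.11 (SE 0.05, limma p 0.0312, adjusted p 0.524). The direction depended on the scaling: with the deposited scaling the difference was 0.03, and after centring each array on its median it was -0.09, where the median of all tested probe sets was -0.11. The baseline arrays were not alike either, with Apoe at 13.62 ± 0.06 in replicates 1 to 5 and 13.49 ± 0.08 in replicates 6 to 9 (SD). Against the first set pain differed by 0.06 (limma p 0.286) and against the second by 0.18 (limma p 0.00383, adjusted p 0.0866). Of the astrocyte markers 9 of 10 were also higher after pain than at baseline, with a median of 0.14 and sums of 50275 to 53888 against 42668 to 53185. In isoflurane, conditioning and conditioning under isoflurane minus baseline 9 of 10 were higher too (medians 0.09, 0.22 and 0.13). Apoe differed there by 0.04, 0.07 and 0.07. The part of astrocyte content in the Apoe differences was not tested.

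In the other comparisons Apoe differed by between -0.04 and 0.07, with limma p-values from 0.15 to 0.917. Quantile normalization narrows the spread of a probe set at such high ranks: the within-group SD of Apoe was 0.085 with it, 0.143 on the deposited scaling and 0.172 with arrays centred on their medians. For Clu the same 3 values were 0.113, 0.114 and 0.135. The median within-group SD over all tested probe sets was 0.227. A different Apoe probe set, 1371288_at, was at the floor of the scale on 28 of 29 arrays and gave no comparison, in contrast to 1370862_at, which is described here.

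Clu encodes clusterin, also called apolipoprotein J, a secreted chaperone that travels on lipoproteins and is made in brain mostly by astrocytes. Probe set 1367784_a_at gave 12.88, 12.78, 12.73, 12.73 and 12.78 after conditioning under isoflurane, and 12.78, 13.05, 12.95, 12.71 and 12.80 after conditioning. After pain Clu had 12.86, 12.93, 12.86, 12.73 and 12.78, after isoflurane 12.87, 12.60, 12.70, 12.92 and 12.81, and at baseline 12.62 at the lowest, 12.73 at the median and 12.99 at the highest. Only conditioning replicate 2 exceeded the highest baseline array. The largest difference between groups was conditioning minus baseline, 12.86 ± 0.13 (SD, n = 5) against 12.76 ± 0.13 (SD, n = 9), at 0.10 (SE 0.06, 95% interval -0.03 to 0.23, limma p 0.113, adjusted p 0.577). Baseline replicates 1 to 5 averaged 12.84 ± 0.11 and replicates 6 to 9 averaged 12.66 ± 0.05 (SD). Clu thus differed within baseline in the same direction as Apoe, with overlap (12.72 to 12.99 and 12.62 to 12.73). The second Clu probe set, 1388246_at, had a mean of 5.19, below the filter of 7.26.

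Lpl encodes lipoprotein lipase, which frees fatty acids from the triglycerides of lipoproteins. Its signals were 9.62, 9.48, 9.48, 8.90 and 9.17 after conditioning, against a lowest of 8.61, a median of 9.07 and a highest of 9.39 at baseline. After conditioning under isoflurane they were 9.40, 8.60, 9.03, 9.33 and 9.00, after pain 9.54, 9.02, 8.73, 8.99 and 8.90, and after isoflurane 9.45, 9.41, 8.85, 9.29 and 8.69. In conditioning 3 of 5 arrays were above the highest baseline array. So were 2 of 5 after isoflurane, 1 of 5 after pain and 1 of 5 after conditioning under isoflurane. Replicate 2 of conditioning under isoflurane, at 8.60, was just below the lowest baseline array. The mean after conditioning, 9.33 ± 0.29 (SD, n = 5), against 9.03 ± 0.30 at baseline (SD, n = 9) gave 0.30 (SE 0.16, 95% interval -0.04 to 0.63, limma p 0.0799, adjusted p 0.536). Leaving out single arrays moved this Lpl difference between 0.22 and 0.40. Pain, isoflurane and conditioning under isoflurane differed from baseline by 0.00, 0.10 and 0.04 in Lpl, each with an SE of 0.16.

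Lrp1 encodes a large endocytic receptor that takes up Apoe-bearing lipoproteins among many other ligands, in neurons and glia. Its signals were 10.45, 10.16, 10.52, 10.17 and 10.02 after conditioning under isoflurane and 10.08, 10.47, 9.99, 10.27 and 10.43 after conditioning. They were 10.20, 9.87, 9.88, 9.86 and 10.02 after pain, 9.66, 9.83, 9.70, 10.43 and 10.23 after isoflurane, and 9.87 at the lowest, 10.07 at the median and 10.61 at the highest at baseline. Both conditioning groups had the higher means and pain and isoflurane alone the lower ones, with baseline between them at 10.14 and overlap in every pair. In conditioning under isoflurane minus isoflurane, 10.26 ± 0.21 against 9.97 ± 0.34 (SD, n = 5 each), Lrp1 differed by 0.29 (SE 0.14, 95% interval 0.01 to 0.58, limma p 0.0436, adjusted p 0.998). Leaving out single arrays moved this difference between 0.21 and 0.41. In conditioning minus pain, 10.25 ± 0.21 against 9.97 ± 0.14 (SD, n = 5 each), Lrp1 differed by 0.28 (SE 0.14, 95% interval 0.00 to 0.57, limma p 0.0513, adjusted p 0.552). Vascular markers above the filter were also higher in conditioning under isoflurane minus isoflurane, 4 of 4 (median 0.17). So were 4 of 4 meningeal and fibroblast markers (median 0.37), but only 3 of 8 oligodendrocyte markers (median -0.06). Summed over the 7 markers of each list with a probe set, vascular signals were 1625 to 2159 against 1585 to 2054. Meningeal and fibroblast sums were 1164 to 2378 against 1042 to 1552. In conditioning minus pain 4 of 4 vascular (median 0.07), 2 of 4 meningeal and fibroblast (median 0.02) and 8 of 8 oligodendrocyte markers (median 0.25) were higher. In pain and in isoflurane minus baseline Lrp1 differed by -0.17 each. There, too, 4 of 4 vascular markers were higher (median 0.15 each), and of 4 meningeal and fibroblast markers 1 and 0 (medians -0.08 and -0.26). The part of vascular, meningeal or oligodendrocyte content in the Lrp1 differences was not tested. Neighbouring groups in the order of Lrp1 means differed by at most 0.17, less than the within-group SD of 0.23.

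Scarb1 encodes scavenger receptor class B member 1, which takes up cholesteryl esters from high-density lipoproteins. Probe set 1386956_at lay at the 45.8th percentile of brightness, just above the filter, and gave 7.71, 8.14, 7.48, 8.07 and 7.59 after conditioning under isoflurane. It gave 8.05, 7.39, 7.33, 7.75 and 7.70 after conditioning, 7.68, 6.60, 7.12, 7.50 and 7.73 after pain, and 7.76, 7.77, 7.81, 7.78 and 7.71 after isoflurane. At baseline the lowest value was 7.09, the median 7.53 and the highest 8.00. The isoflurane arrays were close together (SD 0.04), whereas the pain arrays were spread (SD 0.47) with replicate 2 lowest. Scarb1 differed by 0.32 in conditioning minus pain (SE 0.20, limma p 0.116, adjusted p 0.592) and by 0.29 in conditioning under isoflurane minus baseline (SE 0.18, limma p 0.108, adjusted p 0.802). Leaving out single arrays moved the difference from pain between 0.14, without pain replicate 2, and 0.42. The second Scarb1 probe set, 1367855_at, had a mean of 6.27 under the filter and ran in the opposite direction in 6 of 8 differences without a filter, so the 2 probe sets of Scarb1 disagree.

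**Figure D2:**
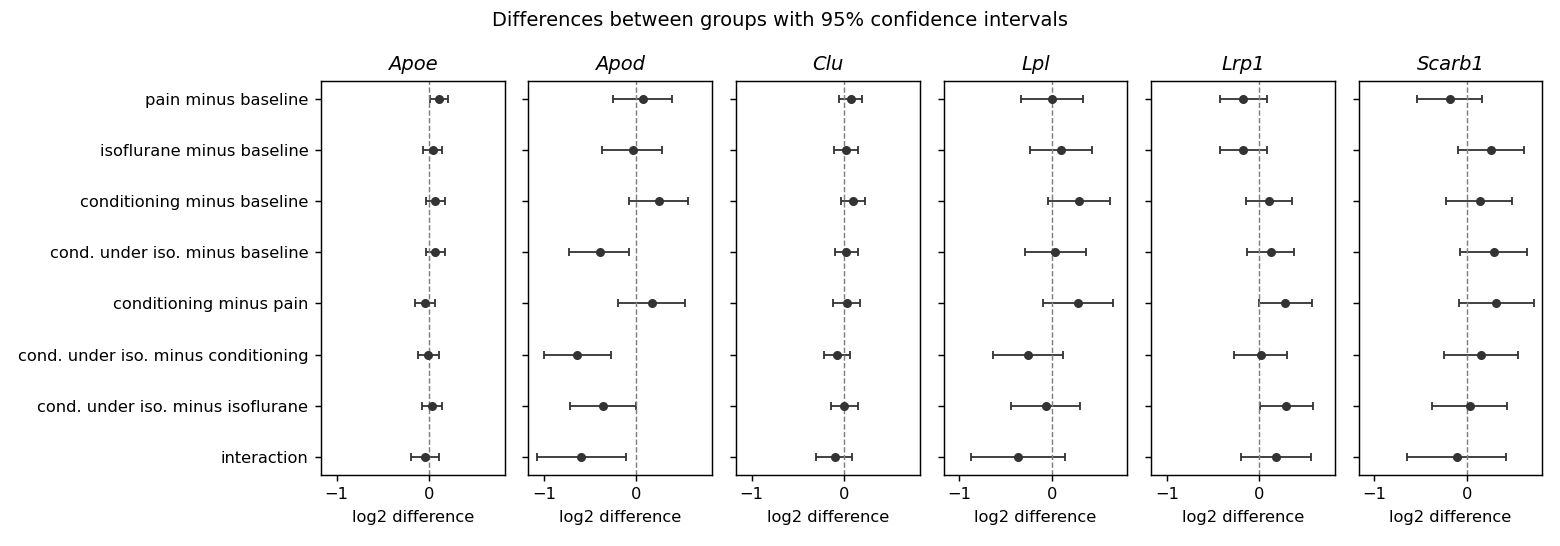
Log2 differences between groups with 95% confidence intervals for the 6 genes, from the limma fit, 1 row per comparison and the first named group minus the second. The dashed line marks no difference. Apod lies at -0.64 in conditioning under isoflurane minus conditioning and -0.60 in the interaction, and its interval leaves out 0 in both without passing the adjusted threshold.

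Taking the 6 genes as a list, limma called 0 of 6 at the adjusted threshold in each of the 7 comparisons, in the interaction and in the F test over the 5 groups. The share called among all tested probe sets was 0.0105% in isoflurane minus baseline and 0% in the others. The lowest adjusted p of a listed gene was 0.524, for Apoe in pain minus baseline. At an unadjusted p under 0.05 the list held 1 gene in pain minus baseline (Apoe, beside 8.96% of all), 0 in isoflurane minus baseline (5.38%) and 0 in conditioning minus baseline (10.1%). It held Apod in conditioning under isoflurane minus baseline (6.50%), in conditioning under isoflurane minus conditioning (3.69%) and in the interaction (4.79%). It held none in conditioning minus pain (9.04%) and Lrp1 in conditioning under isoflurane minus isoflurane (4.00%). In the F test Apod had p 0.0181 (adjusted p 0.674) and the other 5 genes p-values from 0.0972 to 0.508, beside 7.35% of all probe sets under 0.05.

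In conditioning minus baseline all 6 genes were higher, with a median log2 difference of 0.12, while 49.9% of all tested probe sets were higher. In pain minus baseline 4 of 6 were higher (median 0.04, beside 49.2%), in isoflurane minus baseline 4 of 6 (median 0.03, beside 51.0%) and in conditioning under isoflurane minus baseline 5 of 6 (median 0.05, beside 51.1%). These 4 comparisons share the baseline arrays. In conditioning minus pain 5 of 6 were higher (median 0.22, beside 50.3%), in conditioning under isoflurane minus conditioning 2 of 6 (median -0.04, beside 51.8%) and in conditioning under isoflurane minus isoflurane 4 of 6 (median 0.02, beside 50.7%). In the interaction 1 of 6 was above 0 (median -0.10, beside 50.8%). Centring arrays on their medians changed these splits: 0 of 6 genes were then higher in pain minus baseline, beside 26.6% of all. It gave 5 of 6 in conditioning minus baseline (36.3%), 6 of 6 in conditioning minus pain (60%) and 2 of 6 in the interaction (61.4%).

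A wider list of 77 genes of lipid transport was read for the same comparisons. Of these, 59 had a probe set and 38 were tested, made up of 8 ligands and lipid carriers, 4 enzymes and their partners, 7 transporters, 13 receptors and their partners and 6 nuclear regulators. Limma called 0 of 38 in each comparison and in the interaction. Between 0 and 2 were higher and between 0 and 3 lower at an unadjusted limma p under 0.05. Over all tested probe sets 3.69% to 10.1% were under it in these comparisons, in either direction. Of the 38, 18 were higher in pain minus baseline (median 0.00), 15 in isoflurane minus baseline (median -0.02), 26 in conditioning minus baseline (median 0.07) and 20 in conditioning under isoflurane minus baseline (median 0.01). In conditioning minus pain 24 were higher (median 0.05), in conditioning under isoflurane minus conditioning 16 (median -0.04), in conditioning under isoflurane minus isoflurane 26 (median 0.03) and in the interaction 19 (median 0.00). Over all tested probe sets these medians were 0, or 0.01 in conditioning under isoflurane minus conditioning, and 49.2% to 51.8% were higher.

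Among carriers, Fabp3, a fatty acid binding protein of the cytoplasm, had its lowest mean after conditioning. It had 9.94 ± 0.31 after conditioning, 10.06 ± 0.17 after conditioning under isoflurane and 10.06 ± 0.17 after pain, against 10.34 ± 0.27 after isoflurane (SD, n = 5 each) and 10.35 ± 0.16 at baseline (SD, n = 9). The Fabp3 difference was -0.40 in conditioning minus baseline (SE 0.12, limma p 0.00156, adjusted p 0.415) and -0.29 in each of the other 2, with adjusted p-values of 0.486 after pain and 0.692 after conditioning under isoflurane. It was also -0.29 in conditioning under isoflurane minus isoflurane (SE 0.13, limma p 0.0377, adjusted p 0.998). The Fabp3 means thus follow the groups with a kit named, isoflurane and baseline, against the 3 without, so a kit difference cannot be told apart. Fabp7, the fatty acid binding protein of astrocytes and radial glia, was at 10.92 ± 0.21 after conditioning under isoflurane and 11.32 ± 0.27 after conditioning (SD, n = 5 each), a difference of -0.40 (SE 0.17, limma p 0.0218, adjusted p 0.999). Fabp5, of the same family, differed by -0.21 in that comparison (SE 0.10, adjusted p 0.999). Ptgds, a prostaglandin synthase that also carries lipids, differed by 0.93 in pain minus baseline with an SE of 0.52 (adjusted p 0.585).

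Among transporters, Slc27a1, a fatty acid transport protein, was at 10.95 ± 0.26 after conditioning (SD, n = 5) and 10.68 ± 0.12 at baseline (SD, n = 9), a difference of 0.28 (SE 0.09, limma p 0.00409, adjusted p 0.415). Abca2, a lipid transporter of oligodendrocytes, differed by 0.23 in the same comparison (SE 0.12, adjusted p 0.528). Slc27a4 differed by 0.19 in conditioning under isoflurane minus isoflurane (SE 0.09, limma p 0.0492, adjusted p 0.998). Among receptors, Lrp3 differed by 0.35 in conditioning under isoflurane minus baseline (SE 0.14, adjusted p 0.692) and Lrp2, or megalin, by -0.37 in pain minus baseline (SE 0.17, adjusted p 0.524). Lrp6, a co-receptor of Wnt signals, differed by -0.32 in isoflurane minus baseline (SE 0.14, adjusted p 0.922). Lrp8, a neuronal receptor of Apoe and reelin, differed by 0.34 in conditioning minus pain (SE 0.17, adjusted p 0.552). Mylip, a ligase that marks the low-density lipoprotein receptor for breakdown, had an interaction of 0.46 (SE 0.21, adjusted p 0.959).

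Among nuclear regulators, Srebf1, a transcription factor of lipid synthesis, differed by 0.33 in conditioning minus pain (SE 0.15, adjusted p 0.532) and Ppard, a nuclear receptor for fatty acids, by -0.26 (SE 0.12, adjusted p 0.532). Ppard also differed by 0.22 in pain minus baseline (SE 0.10, adjusted p 0.524). Rxrb, the partner of many nuclear receptors, differed by 0.36 in conditioning under isoflurane minus isoflurane (SE 0.16, adjusted p 0.998). In isoflurane minus baseline Rxrb differed by -0.30 (SE 0.14, adjusted p 0.922). None of these carriers, transporters, receptors and regulators passed the adjusted threshold.

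Among the 6 genes themselves, Apoe and Clu varied together from array to array. Of the 15 pairs of genes, tested by permutation over 29 arrays, only this pair passed, with Pearson's r 0.65 (permutation p 0.00015, adjusted over the 15 pairs 0.00225). Spearman's rho was 0.56 (permutation p 0.00194, adjusted 0.0291). With values centred on their group means r was 0.62 (adjusted permutation p 0.00465), and without the 2 arrays farthest from the median Clu signal it was 0.63 (adjusted permutation p 0.0066). The other 14 pairs had r between -0.25 and 0.30 with adjusted permutation p-values from 0.623 to 0.952.

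The Apoe and Clu relation had the same sign in each group, with r of 0.54 in conditioning under isoflurane, 0.65 in conditioning, 0.63 in pain, 0.60 in isoflurane and 0.75 at baseline, over 5 arrays each and 9 at baseline. These 5 values are descriptions with no test. It was 0.70 among the 14 arrays with a kit named (adjusted permutation p 0.091) and 0.50 among the 15 without (adjusted permutation p 0.305), so it passed in neither set alone. The difference in means between baseline replicates 1 to 5 and 6 to 9, described above, was part of the spread behind the relation. With these sets centred apart r was 0.52, and over the 20 treated arrays it was 0.54. On the deposited scaling r was 0.69 (adjusted permutation p 0.0006).

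**Figure D3:**
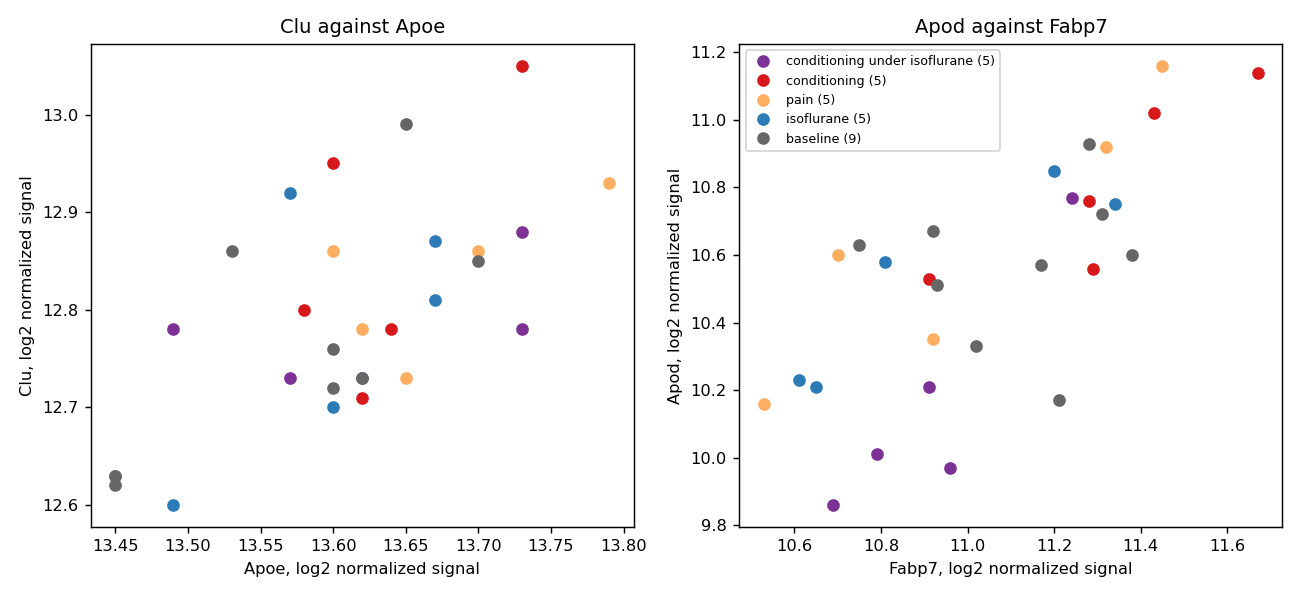
Left, log2 signal of Clu against Apoe, and right, Apod against Fabp7, 1 point per array and 1 colour per group as in the legend, with 29 arrays in each panel and some points on top of each other. Clu and Apoe go together with r 0.65, with 4 arrays at the lower left, 3 of them baseline. Apod and Fabp7 go together with r 0.74, and Fabp7 was picked for that likeness.

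Set against cell type marker lists, Apoe and Clu went with astrocyte markers and Scarb1 with neuronal ones. The 6 genes and 8 lists make 48 pairs, of which 3 passed over 29 arrays. Apoe with the astrocyte mean had r 0.62 (permutation p 0.00039, adjusted 0.0168) and rho 0.53 (permutation p 0.00315, adjusted 0.0756). Clu with the astrocyte mean had r 0.59 (permutation p 0.0007, adjusted 0.0168) and rho 0.57 (permutation p 0.00179, adjusted 0.0756). Scarb1 with the neuronal mean had r 0.55 (permutation p 0.00263, adjusted 0.0421) and rho 0.42 (permutation p 0.0233, adjusted 0.14). None of the 3 passed by rank.

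These 3 relations kept their sign in all settings run, but 0 of 48 pairs passed with values centred on group means, without the 2 arrays farthest from the median, or in either set of arrays by kit. For Apoe and astrocytes r was 0.54 after centring, 0.52 without the 2 farthest arrays, 0.57 with a kit named and 0.48 without. For Clu and astrocytes these values were 0.55, 0.40, 0.54 and 0.58. For Scarb1 and neurons they were 0.47, 0.47, 0.60 and 0.61. Without pain replicate 3 the Scarb1 relation did not pass (r 0.52, adjusted permutation p 0.0594), and on the deposited scaling its r was 0.35. Apod with oligodendrocyte markers came close, at r 0.51 (permutation p 0.00492, adjusted 0.0534) and rho 0.46 (permutation p 0.0131, adjusted 0.105), and at 0.36 without the 2 farthest arrays. So did Lrp1 with vascular markers, at r 0.50 (permutation p 0.00556, adjusted 0.0534) and rho 0.49 (permutation p 0.0084, adjusted 0.105). For Lrp1 and vascular markers r was 0.56 after centring, 0.48 without the 2 farthest arrays, 0.48 with a kit named, 0.54 without and 0.39 on the deposited scaling.

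**Figure D4:**
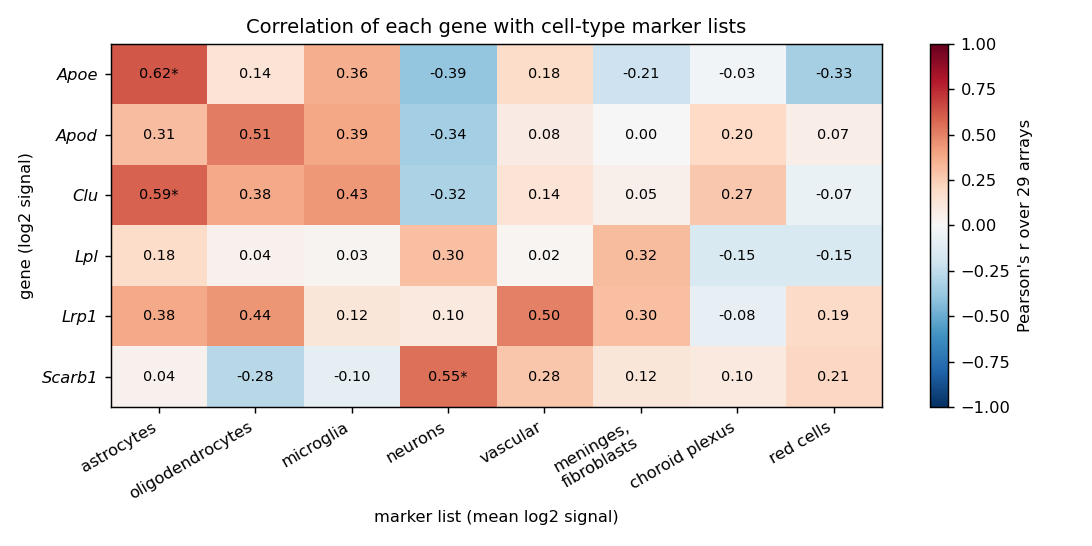
Pearson's r over 29 arrays between each of the 6 genes (rows) and the mean log2 signal of 8 cell type marker lists (columns), red above 0 and blue below. A star marks the 3 of 48 pairs with an adjusted permutation p under 0.05, which are Apoe and Clu with astrocytes and Scarb1 with neurons.

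The transcripts most like each gene over the 29 arrays were found by Pearson's r among all tested probe sets with 1 symbol, and are given as descriptions. Nearest to Apoe were Ctsb, the lysosomal protease cathepsin B (r 0.80), the ribosomal gene Rpsa (0.72) and Agt, angiotensinogen, which astrocytes make in brain (0.68). Nearest to Apod were the ribosomal gene Rpl21 (0.74), Fabp7 (0.74) and Bet1, of vesicle transport (0.72). Nearest to Clu were Serpine2, a secreted protease inhibitor (0.76), Dazap2 (0.72) and Magt1 (0.70). Among these 9, r after centring on group means lay between 0.67 and 0.77. Lpl was most like Orc4 (0.68), Ptn, the growth factor pleiotrophin (0.67), and Pm20d2 (0.66). Lrp1 was most like Ubr2 (0.81), Phc3 (0.79) and Cep120 (0.77), and Scarb1 like Ythdf3 (0.68), Rab10 (0.62) and Mef2c (0.60). All points share arrays and their scaling, and no p is given, since each gene was picked as the highest of the table.

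Fabp7, which was near Apod and also on the wider list, had 10.96, 11.24, 10.91, 10.69 and 10.79 after conditioning under isoflurane, against 11.29, 11.67, 11.28, 10.91 and 11.43 after conditioning. As with Apod, replicate 2 was the high array in both groups and replicate 4 the low one. Ctsb, nearest to Apoe, had 11.71, 11.77, 11.85 and 11.65 in baseline replicates 6 to 9, which are all below the 5 other baseline arrays, at 11.88 to 12.02. After quantile normalization baseline replicates 6, 7 and 9 had the 3 lowest Apoe values of the 29 arrays, tied at 13.45. Together with isoflurane replicate 2 they had the 4 lowest Clu values. On the deposited scaling replicates 6 and 7 stayed low in Apoe, at 10030.2 and 10608 signal units, but replicate 9 was at 13170.9. Pain replicate 3 was there below baseline replicate 9 in both genes (Apoe 10766.7, Clu 6425.2 against 6709.4).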

How the data were processed

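The deposited values are linear intensities of a 1-colour rat expression array, 1 value per probe set and array, scaled by the authors. Trimmed by 2% at each end, the array means are 500.084 to 500.117, and the software, build and background step are not given in the sources used here. Of 15923 probe sets, 57 controls were left out. Genes were named through the platform annotation: 12783 probe sets have 1 symbol, 312 several and 2771 none, and 12748 were matched to genes of GRCr8 with 0 symbols changed.

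The intensities were quantile normalized over 29 arrays, given a floor of 16 and log2 transformed. The tests took in probe sets whose mean log2 signal reached the 40th percentile (7.26). The fit was limma 3.58.1 in R 4.3.3 (lmFit, eBayes with a variance trend) with 1 mean per group and 24 residual degrees of freedom, 7 contrasts of 2 groups, 1 interaction and an F test. Correlations used 100000 permutations. The code was tested on simulated data. The highest correlation between 2 arrays was 0.9772, and 0 pairs of arrays were identical. The number of arrays limits the precision.

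Where a gene has several probe sets, the brightest stands for it. Genes of the wider list were picked if they passed, or else as the 2 higher and 2 lower with the lowest p in a comparison. Not every gene and comparison so picked is given above, and Srebf2 and Dbi are among those left out. For likeness the 3 highest r are named. The members and all lists were chosen with earlier results of these data known. Alternatives were other scalings, filters, floors, baseline sets, a block for the replicate number and leaving out arrays. Leaving out pain replicate 3 everywhere, the subsets for Apoe with Clu and counting rank correlations were added after seeing the data.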

Additional observations from a re-analysis of the deposited data

How the results depend on the processing

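No gene of the 6 and none of the wider 38 passed the adjusted threshold under any setting run, and the lowest adjusted p of the 6 genes was 0.0866, for Apoe in pain minus baseline replicates 6 to 9. The Apod differences of conditioning under isoflurane from conditioning, isoflurane and baseline, and the Apod interaction, stayed below 0 in every setting. With baseline replicates 6 to 9 alone, where 0 of the 6 genes passed, 160 of 9520 probe sets passed in pain, 29 in isoflurane, 101 in conditioning and 57 in conditioning under isoflurane minus baseline, against 0, 1, 0 and 0 with all 9 baseline arrays. The cause of the changes of sign below was not tested unless the setting itself shows it. They include Apoe in pain minus baseline, which was over 2 standard errors after quantile normalization (0.11, SE 0.05).

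On the deposited scaling, Apoe turned to -0.04 in isoflurane minus baseline, -0.01 in conditioning under isoflurane minus baseline and 0.04 in conditioning minus pain, and Clu to -0.01 in isoflurane minus baseline, -0.02 in conditioning under isoflurane minus baseline and -0.01 in conditioning under isoflurane minus isoflurane. With arrays centred on their medians, pain minus baseline turned to -0.09 for Apoe, -0.11 for Apod, -0.10 for Clu and -0.09 for Lpl, beside a shift of -0.11 over all tested probe sets. Apoe then turned to -0.07 in isoflurane minus baseline, -0.01 in conditioning minus baseline, -0.06 in conditioning under isoflurane minus baseline, 0.08 in conditioning minus pain and 0.02 in the interaction. Clu turned to -0.04 in isoflurane minus baseline, -0.06 in conditioning under isoflurane minus baseline and -0.02 in conditioning under isoflurane minus isoflurane. With this centring 10 of all tested probe sets passed in pain minus baseline, against 0 after quantile normalization.

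The replicate numbers gave no clear pairing of the arrays. After removing group means, the correlation of same-numbered arrays was -0.24 to 0.26 over 50 pairs (median -0.01). Over 200 pairs of different numbers the median was 0, and 8 of 25 arrays correlated best with their own number. Whether arrays of the same number were handled together was not tested. With the replicate block 0 of the 6 genes passed, and Clu turned to -0.01 in pain minus baseline, -0.06 in isoflurane minus baseline and -0.06 in conditioning under isoflurane minus baseline, while Apoe turned to -0.02 in isoflurane minus baseline and 0.01 in the interaction. Baseline replicates 6 to 9 have no partner under that block, and baseline replicates 1 to 5 alone gave the same 5 values: -0.01, -0.06 and -0.06 for Clu, -0.02 and 0.01 for Apoe. With baseline replicates 6 to 9 alone Lpl in pain minus baseline was -0.01.

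The dim second probe set of Clu gave -0.52 in pain minus baseline, -0.18 in conditioning under isoflurane minus baseline and -0.66 in conditioning under isoflurane minus isoflurane. That of Scarb1 gave -1.16 in isoflurane, -0.73 in conditioning and -0.94 in conditioning under isoflurane minus baseline, -0.06 in conditioning minus pain, -0.21 in conditioning under isoflurane minus conditioning and 0.96 in the interaction. That of Apoe is at the floor and gave no value. Filters, floors, the variance trend and fits of only the groups compared turned no sign of the 6 genes. The 70th percentile filter leaves Scarb1 untested.

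Leaving out 1 array in turn, Apod ranged from -0.06 to 0.19 in pain minus baseline (-0.06 without pain replicate 3) and from -0.13 to 0.03 in isoflurane minus baseline, and Lpl from -0.12 to 0.08 in pain minus baseline. Clu ranged from -0.01 to 0.07 in isoflurane minus baseline, from 0.00 to 0.05 in conditioning under isoflurane minus baseline, from -0.02 to 0.06 in conditioning minus pain and from -0.04 to 0.04 in conditioning under isoflurane minus isoflurane. Lpl ranged from -0.04 to 0.16 in conditioning under isoflurane minus baseline and from -0.18 to 0.05 in conditioning under isoflurane minus isoflurane. In conditioning under isoflurane minus conditioning Apoe ranged from -0.03 to 0.03 and Lrp1 from -0.05 to 0.08, and in conditioning under isoflurane minus isoflurane Scarb1 ranged from -0.06 to 0.11.

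Of the 48 pairs of genes and marker lists 3 passed, against 0 with values centred on group means, 0 without the 2 arrays farthest from the median, 0 in the 14 arrays with a kit named, 0 in the 15 without and 0 by Spearman rank correlation. Of the 15 pairs of genes 1 passed, Apoe with Clu, against 0 in the 14 arrays with a kit named and 0 in the 15 without, where fewer arrays are tested. The Apoe and Clu pair passed in the other settings run.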
